A study of Mus musculus with 6 samples.

Results

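The histone genes of the mouse, both the replication-dependent genes and the variants, were followed through a pull-down of telomeric chromatin and its RNA. The members were the deposited transcript models that had at least 50% of their exon bases inside the annotated span of a gene named H1f, H2a, H2b, H3 or H4 (mm10 coordinates, RefSeq genes of the GRCm38.p6 assembly), 37 of the 7959 models in all. No measured value entered this rule. The 37 models lay in 34 of 111 annotated histone genes, and the lowest exon share inside a gene was 94.7% (H4c14), so that none stood near the limit, and no model lay just outside it. The 37 models formed 35 separate loci, because a 3-exon model of H1f2 and a 2-exon model of H1f3 overlap the single-exon models of the same genes and share their reads.

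All 6 libraries came from MEL cells, a mouse erythroleukaemia cell line labelled with the strain C57BL/6, which had been fixed with 3.7% formaldehyde for 30 min before the chromatin was prepared. The 3 groups held 2 libraries each: RNA of the input chromatin, RNA isolated with the masked TH59-DB probe (the negative control) and RNA isolated with the TH59-DB probe itself, a polyamide of pyrrole and imidazole units that is directed at telomeric DNA. The labels give no genetic change in any group, and all cells were fixed, those of the input included. Nothing in the labels tells if both libraries of a fraction stem from different cultures; the p-values below therefore measure only the spread between libraries, which may be technical.

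Replication-dependent histone genes supply the bulk of the histones that package newly made DNA. They lie in clusters, mostly lack introns, are transcribed mainly in S phase, and give mRNAs that end in a stem-loop bound by the protein Slbp instead of a poly(A) tail. Variant histone genes mostly lie outside these clusters, are expressed outside S phase too, and mostly give polyadenylated mRNAs. H2A, H2B, H3 and H4 form the core of the nucleosome, and H1 binds the linker DNA between nucleosomes. Libraries of total RNA, as used here, can hold histone mRNAs without a poly(A) tail.

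The members were spread unevenly over the histone loci. The large cluster on chromosome 13 held 28 models in 25 of its 56 genes, the cluster on chromosome 3 held 3 models in 3 of its 10 genes (H2ac20, H2bc18 and H4c14), and no model lay in the 4 genes of the cluster on chromosome 11. H4f16, a replication-dependent H4 gene outside the clusters on chromosome 6, had 1 model. Of the variants, 5 of 35 genes had a model (H2ax, H1f0, H3f3b, H2aj and H2az1), as did 0 of 5 annotated pseudogenes. Among replication-dependent genes, a model was present for 5 of 6 H1 genes, 4 of 20 H2A genes, 8 of 18 H2B genes, 4 of 13 H3 genes and 8 of 14 H4 genes. The model set itself bears on which genes are seen, since no model of the series had fewer than 5 reads in the TH59-DB 1 library, while 1404 to 4341 models were at 0 reads in each other library. The shares and medians over all models given below for contrast are taken over the same set, so they too refer to models present in TH59-DB 1. Over all tested models the median log2 difference of TH59-DB from input was 0.90 in the first libraries and -0.97 in the second. Over the histone members it was -0.81 and -1.59. How far this limit on the models shifts the contrasts was not tested.

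Promoters of 4 members are printed to show the elements behind a histone mRNA: H4c4 and H2bc18 as core histone genes with low values in the TH59-DB libraries, H1f4 for the linker histones, and H2az1 for the variants. Each line gives 250 bases before to 50 bases after the annotated start, 5′ to 3′ on the gene's strand, from RefSeq on GRCm38.p6. Capitals mark the letters TATAAA of a core promoter box that binds the general transcription machinery. They also mark the element CCAAT found in many promoters, the octamer with the letters ATTTGCAT that is known from H2B promoters, and the box AAACACA known from H1 promoters. Each was sought on either strand, and the octamer is not part of the other elements.
H4c4 promoter: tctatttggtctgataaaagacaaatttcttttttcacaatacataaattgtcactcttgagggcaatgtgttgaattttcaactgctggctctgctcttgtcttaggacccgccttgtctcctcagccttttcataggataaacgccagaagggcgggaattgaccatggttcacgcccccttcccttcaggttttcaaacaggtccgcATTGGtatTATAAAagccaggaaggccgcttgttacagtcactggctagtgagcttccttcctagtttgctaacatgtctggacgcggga
H2bc18 promoter: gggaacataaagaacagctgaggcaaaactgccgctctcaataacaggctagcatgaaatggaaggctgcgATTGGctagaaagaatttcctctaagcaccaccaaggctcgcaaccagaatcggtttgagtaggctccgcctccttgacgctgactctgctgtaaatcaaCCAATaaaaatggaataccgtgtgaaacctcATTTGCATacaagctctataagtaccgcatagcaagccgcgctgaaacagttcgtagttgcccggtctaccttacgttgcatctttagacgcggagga
H1f4 promoter: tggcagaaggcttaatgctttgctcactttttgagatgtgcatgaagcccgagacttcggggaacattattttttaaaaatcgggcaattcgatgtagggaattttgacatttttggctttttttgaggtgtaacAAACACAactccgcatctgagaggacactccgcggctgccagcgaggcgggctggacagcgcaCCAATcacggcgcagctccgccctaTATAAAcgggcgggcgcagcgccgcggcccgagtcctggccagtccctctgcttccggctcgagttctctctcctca
H2az1 promoter: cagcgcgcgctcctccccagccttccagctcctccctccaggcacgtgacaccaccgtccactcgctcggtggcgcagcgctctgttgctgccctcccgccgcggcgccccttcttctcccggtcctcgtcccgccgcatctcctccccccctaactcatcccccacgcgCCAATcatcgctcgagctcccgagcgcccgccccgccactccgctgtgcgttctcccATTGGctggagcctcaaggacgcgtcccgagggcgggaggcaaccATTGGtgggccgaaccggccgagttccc
H4c4 is shown at chr13:23581318-23581617 on the plus strand, with CCAAT on the opposite strand just before the core box. H2bc18 is shown at chr3:96269450-96269749 on the plus strand and has the octamer but no TATAAA in this window. H1f4 is shown at chr13:23622509-23622808 on the minus strand and has the H1 box, then CCAAT, then the core box. H2az1 is shown at chr3:137864237-137864536 on the plus strand and has 3 CCAAT elements and none of the other marked letters.

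The sequence table held windows for 30 of the 34 member genes, with none for H4c14, H2bc4, H3c1 and H2ax. Over the 27 windows of 26 replication-dependent genes, TATAAA was present in 16 (59.3%, against 13.6% of 32851 windows of all genes) and CCAAT in 23 (85.2%, against 37.4%). The octamer ATTTGCAT was present in 5 windows (18.5%, against 1.74%), and these were windows of H2A and H2B genes. AAACACA was present in 5 windows (18.5%, against 7.18%). Of these, 4 were H1 windows, those of H1f2, H1f3, H1f4 and H1f5, where it began between positions -122 and -112 relative to the annotated start. The telomere repeat unit TTAGGG was present in 3 windows, those of H1f1, H1f2 and H1f3 (11.1%, against 10.6% of all windows), and in 1 of 4 variant windows, that of H2az1. A tandem pair of TTAGGG, each of which also counts as that unit, was in no window of a member (against 0.0122% of all windows). Both strands were searched throughout, and a match is a description of the letters, not of a bound factor.

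The libraries held 1803723 to 3122558 counted reads, so that 1 read was worth 0.320 to 0.554 CPM, where CPM stands for reads in 1000000 of that total. Between 35.7% and 69.2% of the reads lay in the deposited models. The libraries stood apart in ways the groups do not account for. A single model (414 bases, inside the Zc3h7a gene on chromosome 16) took 50.8% of masked TH59-DB 1, 2.77% of TH59-DB 2 and 13.4% to 20.8% of the other libraries. Histone values with the 2 largest models, this one included, left out of the denominator are given below, without a test. The median histone model had 35 reads in masked TH59-DB 1, 42 and 45 in the TH59-DB libraries and 106 to 182 in the rest. Of the 20 erythroid markers examined, 10 had a model (Gata1, Klf1, Nfe2, Epor, Car1 and Car2 among them), the globin genes had none, and neither did any of 7 genes of other tissues. Of 11 markers of other blood cells, 2 had a model (Laptm5 and Itga2b).

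The models lay along most of the intronless genes. Over the 24 single-exon replication-dependent models in genes of 375 to 911 bases with an annotated strand, the model covered a median of 81.9% of the gene (18.9% to 96.3%). The median distance from the gene's start to the model was 31 bases, and the median distance from the model to the gene's end, where the stem-loop of a histone mRNA lies, was 53.5 bases. The gap at the end was the larger in 15 of 24 models. The strand of these models carries no information: all 5997 single-exon models of the series were written as plus, also 15 models of histone genes that lie on the minus strand, so sense and antisense RNA cannot be told apart.

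**Figure D1:**
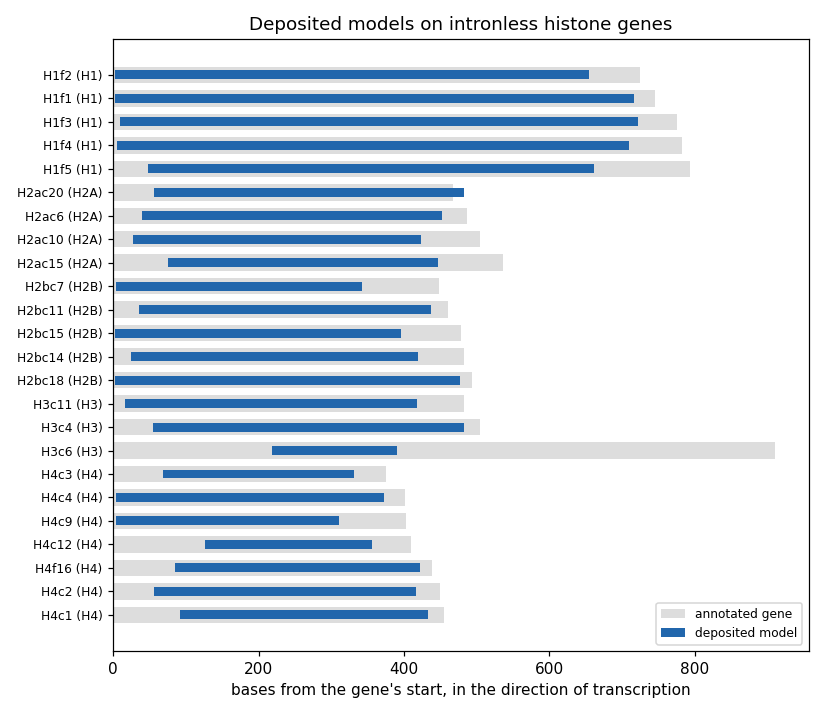
The extent of 24 deposited single-exon models (blue) on their intronless histone genes (grey), in bases from the gene's start. The models cover a median of 81.9% of the gene; the least covered are H3c6 with 18.9% of a long annotated gene and H4c12 with 56.2%.

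In the input, histone reads made up 0.264% of library 1 (95% Clopper-Pearson interval 0.258% to 0.270%) and 0.390% of library 2 (0.383% to 0.397%). In the masked control they made up 0.116% and 0.302%, and in the TH59-DB libraries 0.144% (0.138% to 0.149%) and 0.127% (0.123% to 0.132%). As shares of the library total, both TH59-DB libraries thus lay below both input libraries and between the libraries of the masked control. These intervals cover counting error only, since reads without molecular identifiers are not independent molecules, and they are far narrower than the spread between libraries of the input or of the masked control. The place beside the masked control depended on the denominator. With the sum of model counts without the 2 largest models, the group means were 1.29% in the input, 1.21% in the masked control and 0.472% in TH59-DB. Both TH59-DB libraries then lay below both masked libraries for 23 of 32 replication-dependent models (30.6% of all models), against 7 (14.7%) with library totals.

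The group means were 0.327% ± 0.0892 in the input, 0.209% ± 0.131 in the masked control and 0.136% ± 0.0116 in TH59-DB (SD, n = 2 each), a ratio of 2.41 between input and TH59-DB. These SDs hold for library totals. TH59-DB 1 and 2 differed in the percent of reads in models (59.0% and 35.7%) and in the fit's scaling factor (TMM, 1.33 and 0.681). The closeness of their histone shares thus depended on the denominator. With 2 libraries against 2, an exact two-sided permutation test cannot go below p = 0.333, so no test of these shares was made. Fewer histone mRNAs in the isolated RNA and more of other RNAs in it cannot be told apart from shares. The summed shares of the other gene lists were compared. The erythroid markers took 0.0855% and 0.117% of the input, 0.0520% and 0.113% of the masked control and 0.0539% and 0.0434% of the TH59-DB libraries. They lay below the inputs in both TH59-DB libraries, although 12 of their 26 tested models had a negative fold change there. Genes of histone mRNA expression and processing took 0.0255% and 0.0437% of the input, 0.0282% and 0.0484% of the masked control and 0.0393% and 0.0235% of the TH59-DB libraries, so that the groups overlapped. Histone chaperones took 0.185% and 0.283% of the input and 0.125% and 0.119% of TH59-DB. S-phase genes took 0.0137% and 0.0202% of the input and 0.0114% and 0.00572% of TH59-DB. Both lists, and that of Macroh2a1 and Cenpa, thus lay below both inputs in both TH59-DB libraries. Markers of other blood cells overlapped between input and TH59-DB. The part of these shares in the result was not tested.

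**Figure D2:**
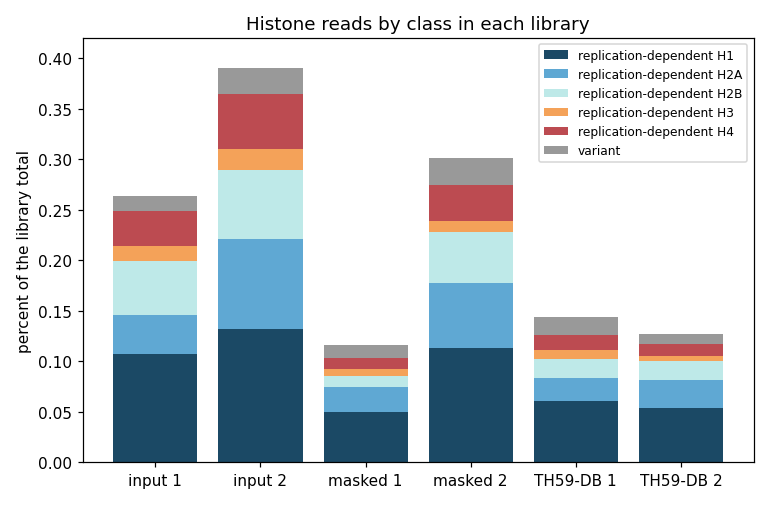
Percent of the library total in replication-dependent histone genes of each class and in the variants, stacked for each of the 6 libraries. The TH59-DB libraries reach 0.144% and 0.127%, below the inputs at 0.264% and 0.390%, and the masked libraries lie at 0.116% and 0.302%.

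Replication-dependent genes carried most of these reads. They took 0.249% and 0.365% of the input, 0.103% and 0.275% of the masked control and 0.126% and 0.117% of the TH59-DB libraries, a ratio of 2.52 between the means of input and TH59-DB. The chromosome 13 cluster took 0.176% and 0.238% of the input and 0.0946% and 0.0794% of the TH59-DB libraries (ratio 2.38). The chromosome 3 cluster, with only 3 models, took 0.0682% and 0.117% of the input and 0.0288% and 0.0346% of the TH59-DB libraries (ratio 2.93). In both clusters, as shares of the library total, the TH59-DB libraries lay below both inputs and between the masked libraries.

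By histone class the ratio of input to TH59-DB was 2.08 for H1, 2.56 for H2A, 3.23 for H2B, 2.62 for H3 and 3.30 for H4, and in every class both TH59-DB libraries lay below both inputs. H1 genes supplied 42.9% and 36.3% of replication-dependent reads in the input, 48.6% and 41.3% in the masked control and 48.6% and 45.8% in the TH59-DB libraries. H4 genes supplied 14.1% and 14.9% in the input, 10.9% and 12.98% in the masked control and 11.8% and 10.5% in the TH59-DB libraries. The H1 part was thus higher and the H4 part lower in both TH59-DB libraries than in both inputs, and for each class 1 or both of the masked libraries lay on the side of TH59-DB. The H2B part was 21.5% and 18.7% in the input against 14.9% and 16.01% in TH59-DB and 10.95% and 18.4% in the masked control. The H2A and H3 parts overlapped between input and TH59-DB.

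The variants took 0.0147% and 0.0252% of the input, 0.0125% and 0.0267% of the masked control and 0.0180% and 0.00989% of the TH59-DB libraries. These groups overlapped, and the ratio of the means of input and TH59-DB was 1.43. The ratio of replication-dependent to variant reads within a library does not depend on the library total. It was 16.9 and 14.5 in the input, 8.24 and 10.3 in the masked control and 7 and 11.9 in the TH59-DB libraries. Both pull-downs lay below both inputs, with means of 15.7 ± 1.72 in the input, 9.26 ± 1.44 in the masked control and 9.44 ± 3.45 in TH59-DB (SD, n = 2 each), and the 2 pull-downs overlapped. The 5 variant models covered only 6.84% (H3f3b) to 50.8% (H2ax) of the annotated gene span. The ratio therefore compares reads in the deposited models, not the amounts of the 2 kinds of histone mRNA.

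**Figure D3:**
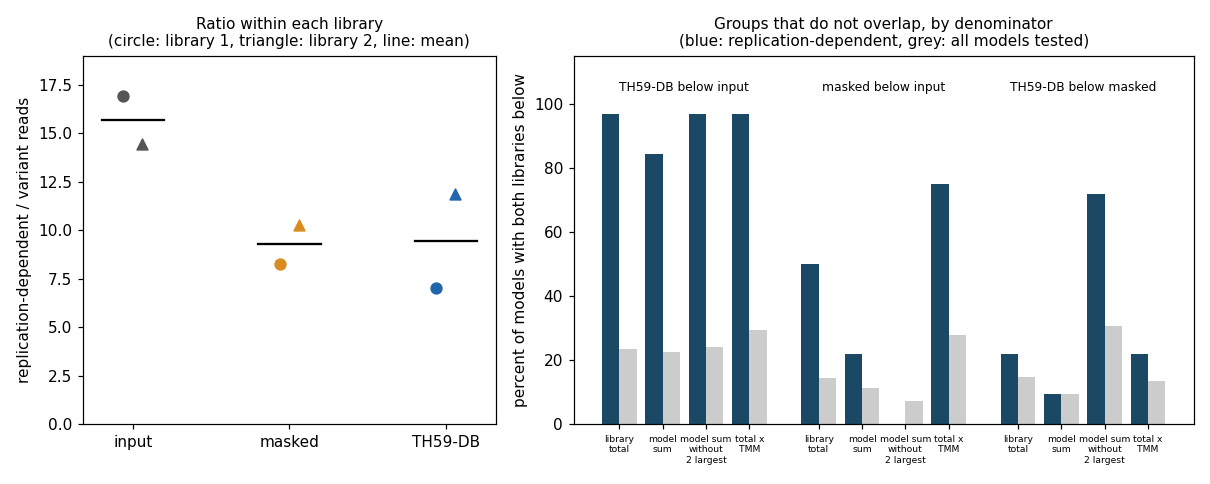
Left, the ratio of replication-dependent to variant histone reads in each library with the group mean; right, the percent of models for which both libraries of a group lie below both of the other, for the 32 replication-dependent models (blue) and all 5385 tested models (grey), with 4 ways of scaling the libraries. TH59-DB lies below input for 27 to 31 of 32 replication-dependent models under these scalings (22.5% to 29.3% of all models, 23.5% with library totals). The masked control lies below input for 0 to 24 (7.15% to 27.8%), and TH59-DB below the masked control for 3 to 23 (9.45% to 30.6%).

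Levels are per model length, which for H2bc4 (164 bases) and H2az1 (173 bases) is a small part of the gene's span. As the deposited FPKM (fragments scaled to model length and library size), they ordered the input as follows. H2ac20 stood highest with 1065 ± 651 FPKM, followed by H2bc18 with 780 ± 120, H1f3 with 457 ± 39.2, H1f2 with 451 ± 91.5, H2bc4 with 440 ± 96.6 and H1f4 with 425 ± 72.2 (SD, n = 2). The leading pair and the 4 genes after it did not differ from their neighbours beyond these SDs, except H2bc18 from H1f3. H2az1, at rank 10 with 232 ± 38.1 FPKM, was the highest variant. In the TH59-DB libraries H2ac20 again stood highest with 421 ± 120 FPKM. H4c4 moved from rank 7 (303 ± 75.8 FPKM in the input) to rank 22 (43.7 ± 10.8 in TH59-DB). H1f0 moved from rank 32 to rank 19 with nearly the same mean, 47.6 ± 12.8 FPKM in the input and 47.7 ± 33.7 in TH59-DB.

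**Figure D4:**
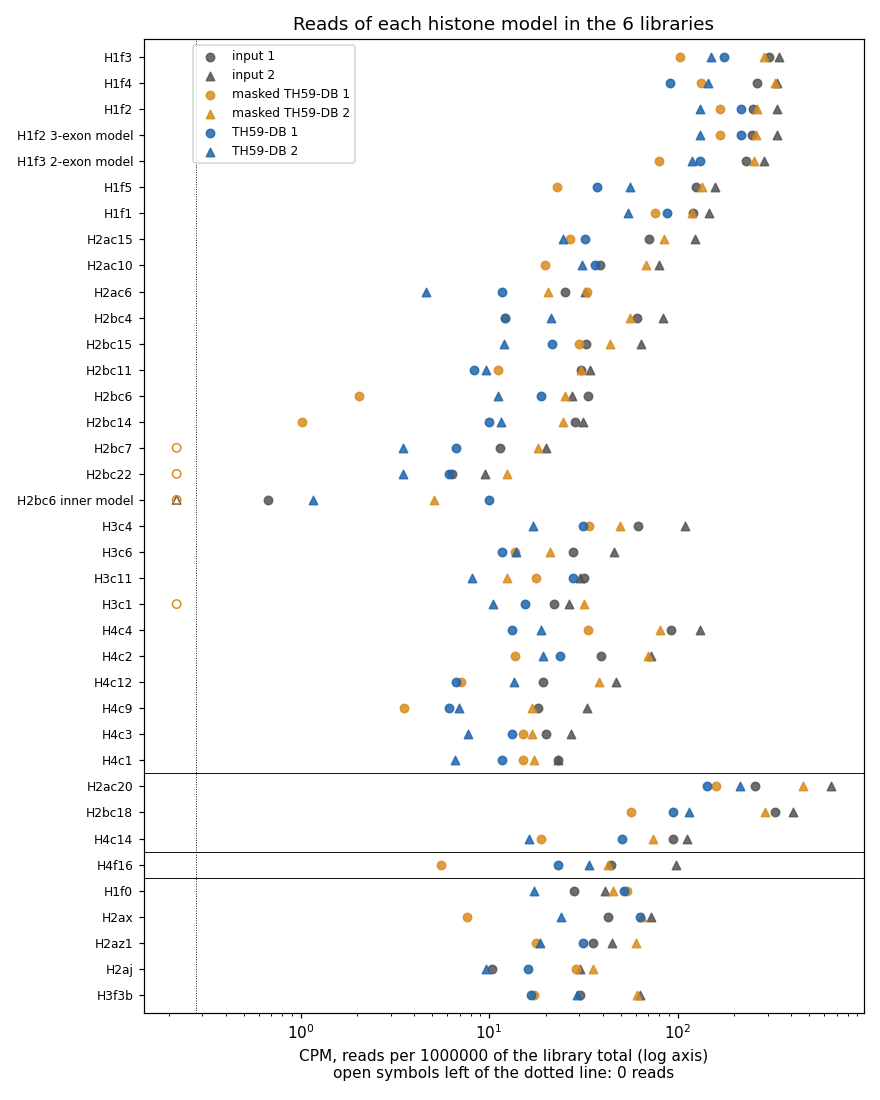
CPM on a log axis of each of the 37 histone models in the 6 libraries, grouped from top to bottom into the chromosome 13 cluster, the chromosome 3 cluster, H4f16 and the variants. The TH59-DB libraries (blue) lie left of the inputs (grey) for 31 of the 32 replication-dependent models, while 2 of the 5 variants show that order.

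TH59-DB was compared with the input to see which RNAs were under- or over-represented in the isolated telomeric chromatin relative to all chromatin. No histone model passed an adjusted p of 0.05 in edgeR's quasi-likelihood test over 5385 models, where 3.58% of all models were called higher and 0.0371% lower. At an unadjusted p under 0.05, 8 of 37 members were lower and 0 higher, against 5.14% and 8.86% of all models. DESeq2 called 1 member lower, H4c4, and 0 higher, and of all models 0.52% lower and 6.85% higher. In CPM, both TH59-DB libraries lay below both inputs for 31 of 32 replication-dependent models and 2 of 5 variants, H3f3b and H2az1, against 23.5% of all models. The median log2 fold change was -1.31 over the replication-dependent models and -0.57 over the variants, beside 0.03 over all models.

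By class the median log2 fold change of TH59-DB against input was -0.96 for H1, -1.37 for H2A, -1.50 for H2B, -1.19 for H3 and -1.40 for H4. The median over all members, -1.14, moved to -0.51 without TH59-DB 1 and to -1.88 without TH59-DB 2. Over all models the median, 0.03, moved to -0.0015 and to 0.48 in these fits. Of the 17 models named with all values here, 12 moved by over 1.5 times in this comparison when 1 of the TH59-DB libraries was left out, and 6 when 1 of the inputs was.

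**Figure D5:**
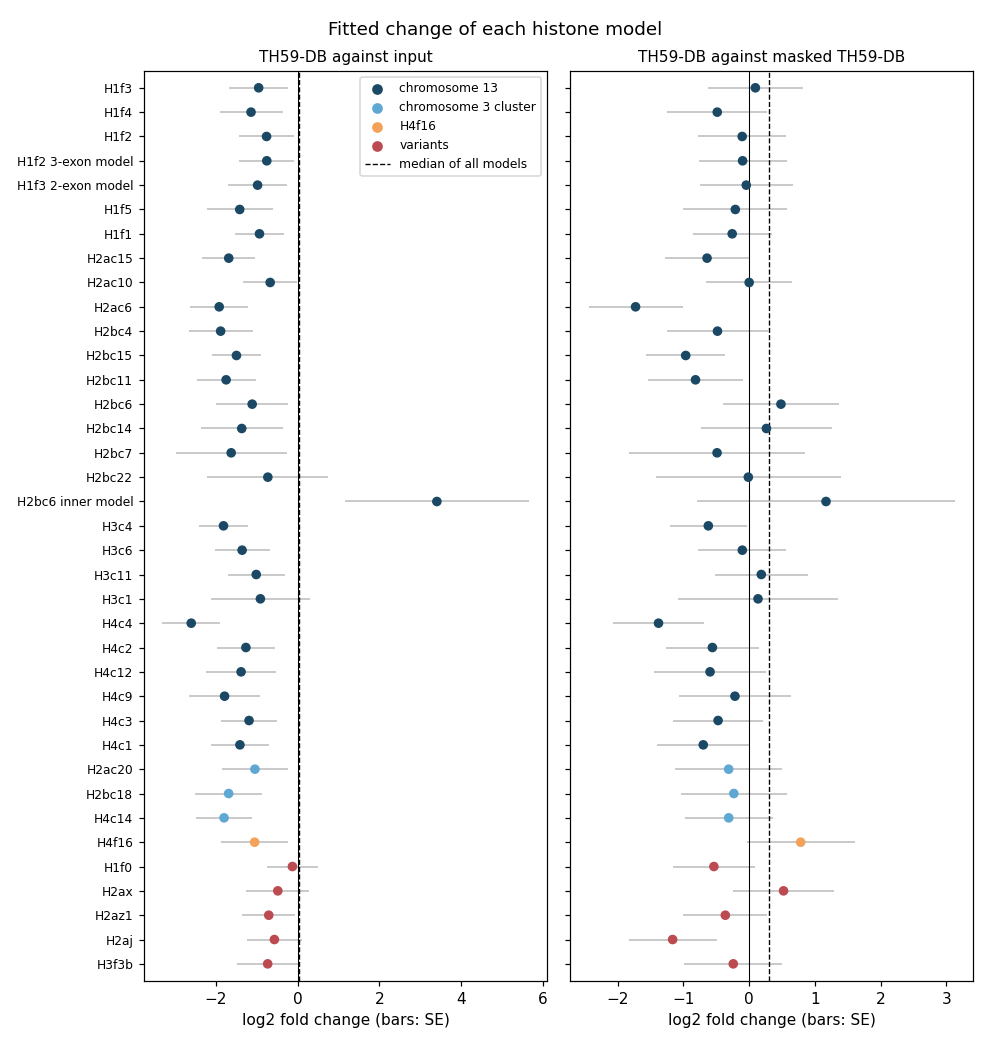
Fitted log2 fold change with its standard error of each histone model for TH59-DB against input (left) and against the masked control (right), coloured by locus group, with the median over all tested models as a dashed line. Against input 36 of 37 points lie below 0, beside 49.1% of all models. Against the masked control 28 of 37 do, beside 40.4% of all models, and no point passes the adjusted threshold in either panel.

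Among the linker histone genes of the chromosome 13 cluster, which encode the H1 proteins of dividing cells, H1f3 (chr13:23555032-23555807) had 306 and 346 CPM in the input, 103 and 288 in the masked control and 176 and 150 in the TH59-DB libraries. H1f4 (chr13:23621777-23622558) had 264 and 336 CPM in the input, 133 and 327 in the masked control and 91.5 and 145 in TH59-DB. H1f2 (chr13:23738807-23739531) had 252 and 336 CPM in the input, 167 and 264 in the masked control and 218 and 132 in TH59-DB. For each of the 3 genes both TH59-DB libraries lay below both inputs and overlapped the masked control. Against the input the log2 fold change was -0.96 (SE 0.72, adjusted p = 0.699) for H1f3, -1.14 (SE 0.77, adjusted p = 0.626) for H1f4 and -0.76 (SE 0.67, adjusted p = 0.762) for H1f2. The 3-exon model of H1f2, which shares the reads of the single-exon model, gave -0.76 as well. Without TH59-DB 1 the values were -0.31, -0.22 and -0.32 for H1f3, H1f4 and H1f2. Without TH59-DB 2 they were -1.69, -2.501 and -1.21.

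H2ac20 (chr3:96220413-96220880), an H2A gene of the chromosome 3 cluster, had 257 and 650 CPM in the input, 160 and 464 in the masked control and 143 and 216 in the TH59-DB libraries. Its input libraries differed from each other more than the lower input did from TH59-DB 2, and the log2 fold change against the input was -1.05 (SE 0.82, adjusted p = 0.710). With TH59-DB 1 left out it came to -0.14, and with TH59-DB 2 left out to -2.35. H2ac6 (chr13:23683473-23683959), an H2A gene of the chromosome 13 cluster, had 25.1 and 32.2 CPM in the input, 33.0 and 20.5 in the masked control and 11.6 and 4.63 in the TH59-DB libraries. H2ac6 had the lowest fold change of the members against the masked control, and its TH59-DB libraries lay below all 4 others. Its log2 fold change was -1.92 (SE 0.72, adjusted p = 0.232) against the input and -1.73 (SE 0.71, adjusted p = 0.409) against the masked control.

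H2bc18 (chr3:96269700-96270192), the H2B gene whose promoter is printed above, had 330 and 411 CPM in the input, 56.8 and 289 in the masked control and 94.2 and 114 in the TH59-DB libraries. In CPM of the library total, the TH59-DB libraries lay close together, far below the inputs and between the masked libraries. The log2 fold change was -1.69 (SE 0.83, adjusted p = 0.411) against the input, and that of the masked control against the input was -1.46 (SE 0.82, adjusted p = 0.824). H2bc14 (chr13:21722044-21722526), another H2B gene, had 28.5 and 31.5 CPM in the input, 1.01 and 24.7 in the masked control and 9.98 and 11.6 in TH59-DB. The log2 fold change of H2bc14 was -1.37 (SE 1.00, adjusted p = 0.686) for TH59-DB against input and -1.64 (SE 0.997, adjusted p = 0.837) for the masked control against input. For TH59-DB against input, H2bc18 gave -0.87 and H2bc14 -0.57 when TH59-DB 1 was left out. They gave -2.77 and -2.39 when TH59-DB 2 was left out.

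The exception among the replication-dependent models was a model of 212 bases at chr13:23600639-23600850. It lies within the long annotated span of H2bc6 and also in the lncRNA gene Gm33387, apart from the main H2bc6 model. It had 2 and 0 reads in the input, 0 and 16 in the masked control and 18 and 3 in the TH59-DB libraries. At these counts the libraries of each pull-down differed several-fold, and the log2 fold change of 3.40 against the input had an SE of 2.25 (adjusted p = 0.612).

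The 4 H3 models took 0.0144% and 0.0213% of the input, 0.00655% and 0.0115% of the masked control and 0.00865% and 0.00494% of the TH59-DB libraries. They were the least read class of core histones. The highest of them in CPM, H3c4 (per length, H3c6 stood above it in the input by less than their SDs), named here after its values were seen, had 62.0 and 110 CPM in the input, 34.0 and 49.3 in the masked control and 31.6 and 17.0 in TH59-DB, so that TH59-DB lay below all other libraries.

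H4c4 (chr13:23581568-23581969), an H4 gene, had 92.1 and 132 CPM in the input, 33.5 and 80.4 in the masked control and 13.3 and 18.9 in the TH59-DB libraries. Both TH59-DB libraries lay below all others, and both masked libraries lay below both inputs. H4c4 had the lowest log2 fold change of all members against the input, -2.61 (SE 0.71, adjusted p = 0.0887; -1.72 without TH59-DB 1), and gave -1.38 (SE 0.68, adjusted p = 0.609) against the masked control. H4c4 passed the threshold against the input without TH59-DB 2, in a fit of TH59-DB and input alone, without TMM factors and with DESeq2.

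H4c14 (chr3:96262934-96263317), the H4 gene of the chromosome 3 cluster, had 94.5 and 112 CPM in the input, 18.8 and 74.0 in the masked control and 50.5 and 16.2 in the TH59-DB libraries. Both pull-downs lay below the input and overlapped each other. The log2 fold change against the input was -1.80 (SE 0.68, adjusted p = 0.240) for TH59-DB and -1.49 (SE 0.68, adjusted p = 0.733) for the masked control. H4f16 (chr6:136803993-136804431) had 44.6 and 98.1 CPM in the input, 5.58 and 42.9 in the masked control and 23.3 and 34.0 in TH59-DB. Both pull-downs of H4f16 again lay below both inputs, with log2 fold changes of -1.06 (SE 0.82, adjusted p = 0.710; -0.16 with TH59-DB 1 left out, -2.32 with TH59-DB 2 left out) for TH59-DB and -1.84 (SE 0.84, adjusted p = 0.738) for the masked control. All 8 H4 member genes share a name with another histone gene in the annotation, as do 17 of the 34 member genes overall. Where such near-identical copies share reads, the split of reads between them is uncertain.

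Of the variants, H1f0 (chr15:79028212-79030504), a linker histone of differentiated and resting cells, had 28.1 and 41.3 CPM in the input, 53.8 and 45.5 in the masked control and 52.1 and 17.4 in the TH59-DB libraries. TH59-DB spanned the inputs, and the log2 fold change of -0.13 (SE 0.62, adjusted p = 0.975) changed sign with the scaling. Both masked libraries of H1f0 lay above both inputs, at 0.40 on the log2 scale (SE 0.62, adjusted p = 0.934). H2ax (chr9:44334715-44336077), the variant that is phosphorylated at DNA breaks, had 42.9 and 72.5 CPM in the input, 7.61 and 64.7 in the masked control and 63.2 and 23.9 in TH59-DB. The 3 groups overlapped for H2ax, and TH59-DB against input gave -0.49 on the log2 scale (SE 0.77, adjusted p = 0.918).

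H2az1 (chr3:137864487-137866922), which encodes the H2A.Z found in nucleosomes at promoters, had 35.5 and 44.8 CPM in the input, 17.8 and 60.5 in the masked control and 31.6 and 18.5 in the TH59-DB libraries. H3f3b (chr11:116021961-116026039), which encodes the replacement histone H3.3, had 30.5 and 63.0 CPM in the input, 17.3 and 61.2 in the masked control and 16.6 and 29.4 in TH59-DB. For both genes TH59-DB lay just below the input, with log2 fold changes of -0.71 (SE 0.64, adjusted p = 0.770) and -0.74 (SE 0.75, adjusted p = 0.819). With TH59-DB 1 left out these were -0.29 and 0.23. With TH59-DB 2 left out they were -1.13 and -2.20. H2aj (chr6:136808248-136810074), an H2A variant, had 10.4 and 30.5 CPM in the input, 28.9 and 35.5 in the masked control and 16.1 and 9.66 in TH59-DB. Its TH59-DB libraries lay below both masked libraries and overlapped the input. The log2 fold change of H2aj was -1.16 (SE 0.67, adjusted p = 0.719) against the masked control and -0.57 (SE 0.67, adjusted p = 0.866) against the input.

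The comparison with the masked probe asks what the TH59-DB probe retains beyond its negative control. Here too no histone model was called by edgeR's quasi-likelihood test, where 1.41% of all models were called higher and 0.0% lower. At an unadjusted p under 0.05, 1 member (H2ac6) was lower and 0 were higher, against 1.69% and 8.26% of all models. DESeq2 called 0 members, and 4.94% of all models higher and 0.0186% lower. The median log2 fold change was -0.24 over the replication-dependent models and -0.36 over the variants, beside 0.30 over all models. Both TH59-DB libraries lay below both masked libraries for 7 of 32 replication-dependent models and 1 of 5 variants, against 14.7% of all models.

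The library numbers disagreed in this comparison. In the first libraries, 14 of 37 members were lower in TH59-DB than in the masked control, with a median log2 difference of 0.38 beside 1.95 over all models, of which 22.5% were lower. In the second libraries, 37 of 37 were lower, with a median of -1.34 beside -1.13 over all models, of which 79.5% were lower. Without masked TH59-DB 1, TH59-DB lay below the remaining masked library for 30 of 32 replication-dependent models, against 46.2% of all models. Without masked TH59-DB 2 this held for 7 (20.5% of all models), without TH59-DB 1 for 13 (32.3%) and without TH59-DB 2 for 11 (16.7%). Without masked TH59-DB 2 the fit also called 3 members higher (H2bc22, H3c1 and H2bc7, named after their values were seen) and H2ac6 lower, where 1479 of 7190 models of the series (20.6%) were called higher and 241 (3.35%) lower. The median over all members then turned from -0.26 to 0.15, while the median over all models went from 0.30 to 5.10. Without TH59-DB 1 the median over all members was 0.14, beside 0.26 over all models.

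The masked control was compared with the input as the background of the pull-down itself. No histone model was called, where 0.26% of all models were called higher and 0.0% lower by edgeR's quasi-likelihood test. At an unadjusted p under 0.05, 1 member (H4c14) was lower and 0 were higher, against 2.95% and 3.86% of all models. DESeq2 called 0 members, and 1.88% of all models higher and 0.371% lower. The median log2 fold change was -0.996 over the replication-dependent models and -0.35 over the variants, beside -0.26 over all models. Both masked libraries lay below both inputs for 16 of 32 replication-dependent models and 0 of 5 variants, against 14.4% of all models. Without masked TH59-DB 2 the count was 30, against 61.9% of all models, without input 1 it was 28 (36.5%), and without masked TH59-DB 1 it was 17 (18.6%). The fit without masked TH59-DB 2 called 5 members lower, H2bc22, H3c1, H2bc7, H2bc6 and H2bc14, and 0 higher, where 1004 of 7190 models of the series (14%) were called lower and 5.69% higher. This comparison shares the input with that of TH59-DB, so the fold changes of both against the input are not independent.

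Genes that act on histone mRNAs and histones were examined as a list beside the members. Of 22 genes of histone mRNA expression and processing, 14 had a model and 22 models were tested. None was called in any of the 3 comparisons, and the median log2 fold change of TH59-DB against input was -0.36. Slbp, the protein that binds the stem-loop, had 76 and 154 reads in the input, 46 and 136 in the masked control and 50 and 30 in the TH59-DB libraries, and the value against the input was -1.04 on the log2 scale (SE 0.61, adjusted p = 0.539). Of 10 S-phase genes, 8 had a model and 10 models were tested. A negative value against the input was found for 9 of 10 (median -1.13, 0 called), against 49.1% of all models. Of 26 tested models of erythroid markers, 12 had a negative value (median 0.03) and 0 were called.

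Histone chaperones, which carry histones to and from DNA, had a model for 21 of 25 genes and 37 tested models. In TH59-DB against input 1 model was called higher and 0 lower, against 3.58% and 0.0371% of all models. A negative value was found for 31 of 37, against 49.1% of all models, and the median log2 fold change was -0.74. The called model lies in the span of Hira (chr16:18958395-18958812), the chaperone of H3.3. It had 0 reads in both inputs and both masked libraries and 51 and 45 reads in the TH59-DB libraries. It entered the test only through the TH59-DB libraries, and against the masked control its adjusted p was 0.0562 (edgeR's quasi-likelihood test). The model of 418 bases is 1 piece of the gene's span, so it does not give the level of the Hira mRNA. The 4 tested models of Macroh2a1 and Cenpa, variants whose symbols lie outside the rule, included 0 called, with a median of -1.35 against the input.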

How the data were processed

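Per the labels, RNA of fixed MEL chromatin was made into stranded total-RNA libraries, and the submitters' processing notes name cutadapt, HISAT2, Cufflinks, featureCounts and mm10. The authors deposited, for each of 6 libraries, counts of reads and FPKM per transcript model, with no SD or test. How reads with several matches were counted is not given in the sources used here. The 7959 models were joined between deposits, 7695 by every exon and the other 264 by chromosome, first exon start and total length. Each library's total was recovered from its deposited counts, FPKM and model lengths, and CPM is relative to it. Counts were fitted with edgeR 4.0.16 (R 4.3.3), 1 quasi-likelihood fit of 6 libraries with recovered totals, TMM factors (0.681 to 1.34) and filterByExpr, which kept 5385 models and all 37 members. Benjamini-Hochberg adjustment ran over all of them at 0.05, 2-sided. The common biological coefficient of variation was 0.702. DESeq2 1.42.0 was an alternative, as were other scalings, filters, fits and left-out libraries. Differences by library number are on the log2 scale of CPM plus 0.5.

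Named with all values were, in each member group (chromosome 13, chromosome 3, H4f16, variants), the 4 models with the highest CPM in the input and those with the highest and lowest log2 fold change in each of 3 comparisons. Members and lists were chosen with earlier results of these data known. Libraries with the same number did not deviate together.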

Additional observations from a re-analysis of the deposited data

How the results depend on the processing

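The count of members called depended on the fit. Against input, 0 lower members became 1 (H4c4) with library totals without TMM factors and with DESeq2, 2 (H4c4 and H2ac6) in a fit of these 2 groups only, and 2 with the library number as a block (H4c4 with adjusted p = 0.00327, and H2bc4). Of all models (5385, or 4864 in the fit of 2 groups), these settings called 23, 28, 61 and 118 lower, in that order. The reported fit called 2. Samples shared only a number, with correlations of deviations of 0.11, 0.0932 and -0.00208. Leaving out 1 library gave 0 to 1 lower against input (1, H4c4, without TH59-DB 2), 0 to 3 higher and 0 to 1 lower against the masked control, and 0 to 5 lower for the masked control against input, the highest each without masked TH59-DB 2. The median log2 fold change of all members ranged from -1.88 (without TH59-DB 2) to -0.51 (without TH59-DB 1) against input, beside 0.48 and -0.0015 over all models. Against the masked control the median of all members ranged from -0.74 (without TH59-DB 2) to 0.15 (without masked TH59-DB 2), and was 0.14 without TH59-DB 1. The medians over all models in these fits were 0.86, 5.10 and 0.26, in that order. With the sum of model counts as denominator the histone share was 0.684%, 0.435% and 0.300% in input, masked control and TH59-DB. Without the 2 largest models in that sum it was 1.29%, 1.21% and 0.472%. With the 18 models whose written strand is that of the gene, it was 0.170% in the input and 0.0747% in TH59-DB. The ratio of replication-dependent to variant reads in that set was 11.3 in the input, 5.62 in the masked control and 6.96 in TH59-DB. As all single-exon models were written as plus, that set mainly leaves out genes on the minus strand and does not select sense RNA. Replication-dependent models below the masked control numbered 3 with the sum of model counts and 23 without the 2 largest models, and 7 to 30 with 1 library left out. Those of the masked control below input numbered 7 and 0 with the same denominators, and 16 to 30 with 1 library left out. Signs turned for the inner H2bc6 model in the masked control against input (-3.06 without masked TH59-DB 2, to 5.55), H4f16 (-0.38 without TH59-DB 2, to 2.20) and H2ax (-0.34 without masked TH59-DB 1, to 1.89) against the masked control, H3f3b against input (-2.20 to 0.23, the last without TH59-DB 1), and H1f0, which against input gave 0.25 with DESeq2 size factors, 0.16 with model sums and 0.25 with DESeq2, and in the masked control against input -0.020 (without masked TH59-DB 1) to 1.10. The cause was not tested. Over all models, calls ranged from 89 to 689 higher and 0 to 118 lower for TH59-DB against input (193 and 2 in the reported fit), from 32 to 1479 and 0 to 241 against the masked control (76 and 0), and from 0 to 409 and 0 to 1004 for the masked control against input (14 and 0). With DESeq2 size factors the median of all models moved from 0.03 to 0.40 against input. A stricter rule of 90% of exon bases kept all 37 members.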
